A study of Homo sapiens with 2 samples.

Results

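The promoters of the cytosolic ribosomal protein genes were examined in H3K27ac HiChIP data of HCT116 cells. HiChIP joins proximity ligation with immunoprecipitation and counts the paired-end tags that connect 2 stretches of chromatin, called anchors, here at chromatin that carries H3K27ac, a histone mark of active promoters and enhancers. HCT116 is a human colorectal carcinoma cell line. A single untreated condition was measured in 2 replicates, so no condition was compared with another, and the labels do not say whether the replicates came from separate cultures. Members were the autosomal protein-coding genes named RPL or RPS with a number and an optional A, X or L, together with RPLP0, RPLP1, RPLP2 and RPSA, and their promoter anchors were those within 2.5 kb of the transcription start site. The rule gave 77 genes, 73 of them with a promoter anchor, and 75 promoter anchors of 16198 on the autosomes and of 250223 anchors in all. RPL10, RPL36A, RPL39 and RPS4X lie on the X chromosome and were left out. The rule used names and positions only, not counts.

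Cytosolic ribosomal proteins build the small subunit, which decodes the mRNA, and the large subunit, which forms the peptide bond. Their genes are transcribed at high and coordinated levels in growing cells, and most of their mRNAs begin with a terminal oligopyrimidine tract, the TOP motif, which places translation under control of mTOR signalling. The tract starts at the cap, so the promoters of these genes carry a pyrimidine stretch around the start site.

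The start regions of 4 of the deepest and of the 4 shallowest promoters, and of the 4 tissue-restricted or divergent paralogs that the naming rule includes, are shown because the depth described next differs between them. Each run gives the 15 bases before and the first 15 bases after the GENCODE canonical start in hg19, 5′ to 3′ on the gene's strand, with every CTTTC or CTTTT that begins within 10 bases of the start in capitals.
RPL41 (chr12:56510402-56510431, + strand): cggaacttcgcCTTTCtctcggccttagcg
RPL13 (chr16:89627075-89627104, + strand): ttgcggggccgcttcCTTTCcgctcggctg
RPL23 (chr17:37009960-37009989, - strand): cttttttCTTTTttccggcgttcaagatgt
RPLP2 (chr11:809952-809981, + strand): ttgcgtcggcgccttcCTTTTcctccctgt
RPL14 (chr3:40498815-40498844, + strand): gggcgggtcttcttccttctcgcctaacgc
RPLP1 (chr15:69745142-69745171, + strand): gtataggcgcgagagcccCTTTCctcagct
RPL11 (chr1:24018281-24018310, + strand): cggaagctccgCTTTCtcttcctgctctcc
RPL5 (chr1:93297582-93297611, + strand): cgcaagggctgtggccCTTTTcccaccccc
RPL3L (chr16:2004676-2004705, - strand): agtcctggccctgccactcgacctctggcg
RPL10L (chr14:47120970-47120999, - strand): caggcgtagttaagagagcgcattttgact
RPL39L (chr3:186857270-186857299, - strand): gcatccggggaaatcgcggtcttagcatcc
RPS27L (chr15:63449662-63449691, - strand): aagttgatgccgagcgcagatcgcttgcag
The deep and the shallow promoters alike carried a pyrimidine run at the start, and among these 8 genes only RPL14 lacked both pentamers. The windows of the 4 paralogs held neither.

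Over all 77 genes, CTTTC or CTTTT on the sense strand within 10 bases of the start was found in 53 (68.8%), against 1054 of all 18978 autosomal protein-coding genes (5.55%). CCGGAA and GGAAGT, both letters of ETS factor sites, were searched on both strands in the 250 bases before and 50 bases after the start. At least 1 of them was present in 51 members (66.2%) and in 37.2% of all genes. ATGGCG, the core of YY1 sites, was present in 25 members (32.5%) against 14.7% of all genes, and GGGCGG, the SP1 box, in 46 (59.7%) against 61.8%. TATAA within 50 bases before the start was found in 10 members (13%), RPS2, RPS27 and RPLP0 among them, and in 6.59% of all genes. These matches describe letters and not bound sites.

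The 2 libraries held 1885481 and 2131466 counts, of which 16.0% and 14.2% joined an anchor to itself and were kept apart. Pairs of distinct anchors no more than 2 Mb apart, measured from midpoint to midpoint, are called loops here whatever their count. Their counts came to 1187130 in replicate 1 and 1369538 in replicate 2, and 88.7% and 87.9% of loops had a single count. A promoter anchor was present for 8 of 8 colon epithelium markers but also for 7 of 7 markers of other cell types, so its presence did not tell cell types apart. The start site of 4 colon markers lay inside an anchor: KRT8 (54 and 63 counts), KRT19 (49 and 63), KRT18 (28 and 25) and EPCAM (10 and 18). CDH1, CDX1, CDX2 and VIL1 had none at the start. Of the markers of other cell types, ALB, CD3E, COL1A1, GFAP and MYOD1 had no anchor at the start, whereas CD79A, a B cell gene close to RPS19, and the leukocyte gene PTPRC had one. CD79A had 33 and 30 counts, above KRT18 and EPCAM in both replicates, and PTPRC had 15 and 16. The depths of the colon markers and of the other markers therefore overlapped.

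The start site lay inside an anchor for 72 of the 77 ribosomal protein genes (93.5%), against a background of 65.7% of all autosomal protein-coding genes. An anchor within 2.5 kb was found for 73, against a background of 84.8%. Among the 4 genes without one were RPS18 and RPS20, which encode core proteins of the small subunit, and RPL10L, a paralog known from the testis. RPL39L, another paralog with testis expression, had an anchor next to the promoter but not at its start. A gene without an anchor has no value here, and nothing about its acetylation or contacts can be read from that.

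Ribosomal protein promoter anchors were deeper than other promoter anchors in both replicates. The depth of an anchor, the sum of its counts to other anchors up to 2 Mb away, ranged from 4 to 52 over the 75 anchors in replicate 1, with a median of 17, and from 6 to 58 in replicate 2, with a median of 21. The 16123 other promoter anchors had medians of 12 and 14, and all autosomal anchors 8 and 9. The ratio of the medians, members over other promoters, was 1.42 and 1.5 (mean 1.46 ± 0.0589 SD, n = 2). The sets differ in how many anchors hold the start site itself. With only the anchors that hold a start site, 72 of members and 10994 of other genes, the mean ratio was 1.25. In the plot of the depth distributions the members were shifted to higher depth over most of the range, and the curves ran together at the highest depths.

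**Figure D1:**
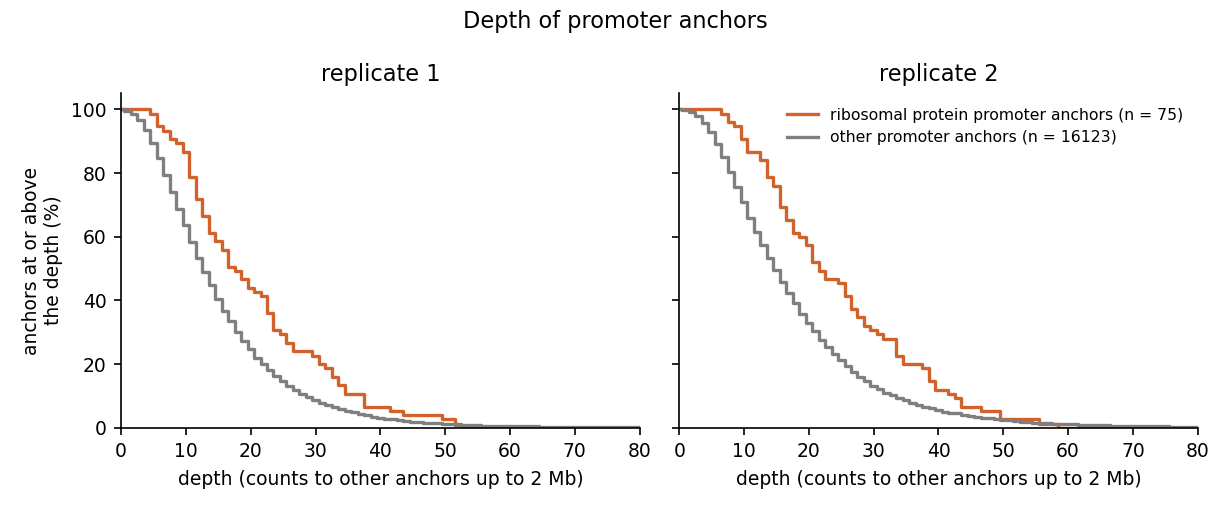
Share of anchors (vertical axis, %) at or above each depth (horizontal axis, counts to other anchors up to 2 Mb) in replicate 1 (left) and replicate 2 (right), for the 75 ribosomal protein promoter anchors (orange) and the 16123 other promoter anchors (grey). The medians were 17 against 12 and 21 against 14 counts.

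The groups overlapped widely. In replicates 1 and 2, 50 and 57 of the 75 anchors lay above the median of the other promoters, and 47 (62.7%) lay above it in both, as did 40.6% of the other promoters. The deepest 10% of the other promoters began above 28 and 33 counts, and 18 (24%) and 17 (22.7%) of the member anchors lay above those limits. The members' deepest anchors did not reach the maximum of the other promoters, 157 and 183 counts. Anchor widths were alike, with a median of 3346 bp for members and 3259 bp for the others, and so were the 7 MboI sites (GATC) per anchor in both sets and the GC content of 50.0% and 49.9%. Per kilobase the members had medians of 4.75 and 6.24 counts and the others 3.57 and 4.19, a ratio of 1.41 ± 0.112 (SD, n = 2). Counts of an anchor with itself differed more, with means of 4.76 and 4.96 for members and 2.51 and 2.67 for the others (ratio 1.88 ± 0.0242, SD, n = 2). Members are not replicates of a condition, so no test was made between the sets, and the SD covers 2 libraries only.

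Other features moved with the members. Of the 75 anchors, 23 (30.7%) held the promoters of 2 or more genes, against 10.9% of the other promoter anchors, and some of these second genes are read-through annotations such as RPL17-C18orf32 and RPS10-NUDT3. The median number of start sites within 500 kb was 15 against 12. Their part in the depth was not tested, but without anchors that touch a second promoter, in both sets, the ratio was 1.36 over 52 member anchors. Some genes lie in the segments of chromosomes 8 and 17 that are taken here as gained in HCT116, namely RPL7, RPL30 and RPL8 on chromosome 8 and RPL27 and RPL38 on chromosome 17. Copy number was not measured here. Relative to the median depth of anchors within 2.5 Mb, the ratio of members to other promoters was 1.38.

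Depth differed widely among the members themselves. RPL41, which encodes the smallest protein of the large subunit, had the deepest anchor (chr12:56508691-56514908), with 52 counts in replicate 1 and 55 in replicate 2, 5.94 times the median of anchors within 2.5 Mb. It also holds the promoter of ZC3H10. RPL7 on chromosome 8 had 43 and 58 counts, 4.81 times its local median, in an anchor that also holds the promoter of RDH10, a retinol dehydrogenase gene. RPL13 (49 and 49 counts), RPL23 (51 and 46) and RPL30 (37 and 49) followed, all components of the large subunit. RPLP2, which encodes a stalk protein that recruits translation factors, had 37 and 41 counts. RPS2 on the small subunit had 41 and 37, and RPL22 had 33 and 43. All 8 exceeded the 28 and 33 counts that bound the deepest 10% of the other promoters. RPL23 and RPLP2 also had the most counts within the anchor itself, 24 and 28 for RPL23 and 20 and 25 for RPLP2.

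At the low end, RPL5 had 4 and 6 counts and RPL11 had 5 and 8, both below the medians of other promoters and of all anchors. These 2 genes encode the proteins that bind the 5S rRNA and inhibit MDM2. RPLP1, the stalk partner of RPLP2, had 7 and 9 counts, so the promoters of the pair differed by 37 against 7 and 41 against 9. RPL14 had 8 and 10 counts, RPS23 9 and 10, RPS3 6 and 13 and RPL27 12 and 7. RPS3 encodes a protein at the mRNA entry of the small subunit. The muscle paralog RPL3L had 9 and 10 counts, the stress-induced paralog RPS27L 10 and 13, and the anchor beside RPL39L 5 and 9. Each of the 3 lay below the median of other promoters in both replicates, while RPL3 had 18 and 15 counts and RPS27 had 37 and 38. None of the 3 had a loop with a summed count of 5 or more.

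**Figure D2:**
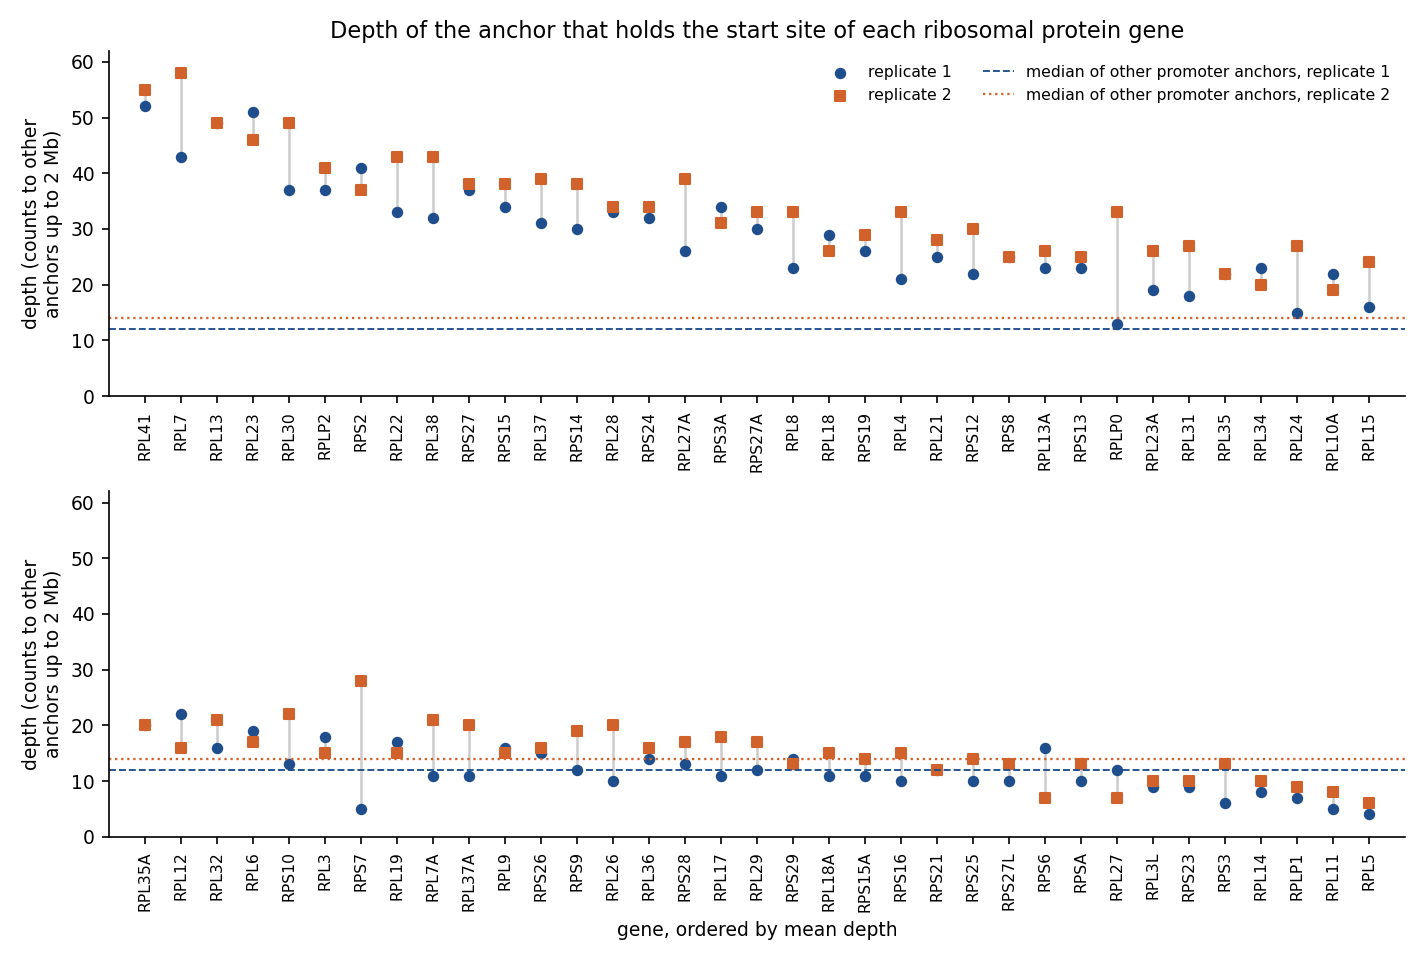
Depth (vertical axis, counts to other anchors up to 2 Mb) of the anchor that holds the start site of each of 70 ribosomal protein genes, ordered by mean depth over both panels, in replicate 1 (blue circles) and replicate 2 (orange squares, drawn on top where equal). Grey lines join the replicates and horizontal lines mark the medians of the other promoter anchors, 12 and 14 counts. RPL41 leads with 52 and 55 counts and RPL5 ends the order with 4 and 6.

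The order of neighbours in this ranking is not resolved by 2 libraries. Across the 75 anchors the depths of the replicates had a Pearson r of 0.873 and a Spearman rho of 0.833, beside 0.885 and 0.827 over the other promoters; the points share libraries, anchors and widths. The widest disagreement was at RPS7, with 5 counts in replicate 1 and 28 in replicate 2, a log2 ratio of 2.28 after scaling to each replicate's counts up to 2 Mb. RPS6, the phosphorylation target of S6 kinase, went the other way with 16 and 7 (log2 ratio -1.40). RPLP0, the base of the stalk, had 13 and 33 (1.14) and RPL27 had 12 and 7 (-0.98). Of the 1139 and 1343 loops of member anchors, 313 were found in both replicates, 27.5% and 23.3% of each, compared with 24.3% and 21.2% for other promoters.

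The subunits had similar levels. The 28 small subunit genes with an anchor at the start had median depths of 14.5 and 23.5 counts, and the 44 large subunit genes had 19 and 21.5, so the order of the medians changed between replicates. On the scale of gene start anchors, the 72 ribosomal protein genes had medians of 18 and 22 counts, or 4.80 and 6.46 per kilobase. Mitochondrial ribosomal protein genes, which serve the organelle's own ribosome, had an anchor at the start for 71 of 78 genes, with medians of 15 and 19 (4.94 and 6.27 per kilobase). A list of other genes whose mRNAs carry the TOP motif, mostly translation factors, had one for 20 of 20, with medians of 20 and 27.5 (4.99 and 6.32 per kilobase). Ribosome biogenesis genes had one for 17 of 19, with medians of 14 and 21 (4.89 and 6.01 per kilobase), and all remaining protein-coding genes had medians of 15 and 17 (3.80 and 4.51 per kilobase). Per kilobase the medians of these 4 lists lay close together, all above that of the remaining genes. The 51 members with CTTTC or CTTTT at the start and an anchor there had median depths of 22 and 26 counts, and the 21 without had 14 and 18, as a description. The direction was the same for the ETS letters (20 and 24.5 against 14 and 19) and for ATGGCG (21 and 25.5 against 16 and 21). It was also the same for GGGCGG (20 and 24 against 17 and 20), which was no more frequent in members than in all genes. For TATAA the direction changed between replicates (15 and 27 against 18 and 21).

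Ribosomal protein anchors had a strong loop more often than other promoters. The study took an interaction count of 5 or more between a gene and a colorectal-cancer-specific enhancer as a comparatively high signal. Here this limit was set on the sum of both replicates, for loops to any anchor. It was reached by a loop at 48 of the 75 anchors (64.0%, exact 95% interval 52.1 to 74.8), read against a background of 34.4% of all promoter anchors. In a single replicate a count of 5 or more was reached at 21.3% and 28.0% of the member anchors, against 9.19% and 12.1% of the other promoters. At a summed count of 10 or more it was 11 anchors (14.7%, 7.56 to 24.7) against 6.36% of the other promoters. Both intervals are binomial and treat the 75 anchors as independent draws, although members are not replicates. They hold no spread between replicates. Intervals on counts in later paragraphs cover counting error only, and the tables carry no molecular identifiers. A deep anchor has more loops that can reach 5, so the other promoters were also weighted to 5 classes of summed depth in the proportions of the members, a comparison chosen after the data were seen. They then reached 51.2%, so the difference fell from 29.8 to 12.8 percentage points. The lowest class held other anchors down to a depth of 0 and the highest up to 340, outside the members' range of 10 to 107. With other promoters of exactly the same summed depth as each member, of which there were at least 9, the share was 52.0% and the difference 12 percentage points. Mitochondrial ribosomal protein start anchors stood at 48.6%, TOP genes at 50.0% and biogenesis genes at 47.1%, beside 65.3% for the members' start anchors and 4409 of 11011 for those of the remaining genes.

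**Figure D3:**
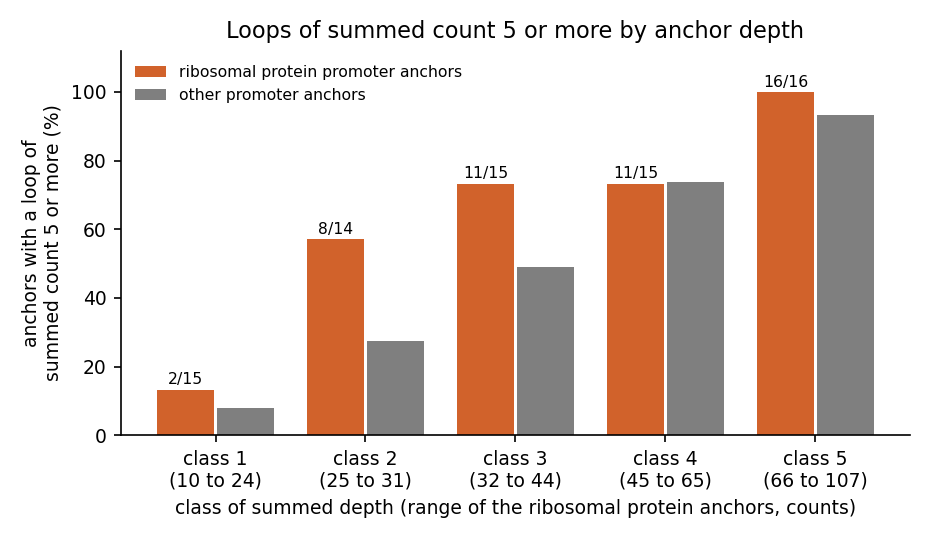
Share of anchors (vertical axis, %) with a loop of summed count 5 or more in 5 classes of summed depth (horizontal axis, with the range of the members in counts), for ribosomal protein promoter anchors (orange, number with such a loop of the number in the class) and other promoter anchors (grey, which in class 1 reach down to 0 and in class 5 up to 340 counts). In class 2 it was 8 of 14 anchors (57.1%) against 27.5%, and in class 4 it was 73.3% against 73.8%.

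Most of the strong loops were short, as at other promoters. The member anchors had 87 loops with a summed count of 5 or more, 68 of them under 20 kb and 19 longer, and 82 had counts in both replicates. A sum of 5 or more seldom falls in a single library of similar size, so the 82 are not read as agreement between replicates. The partner anchor held a promoter in 51 (58.6%). Counted from each anchor, 78.7% of the members' strong loops and 73.4% of those of other promoters were under 20 kb, and 59.6% against 32.8% had a promoter partner. The highest counts belonged to RPL41, which was joined by 10 and 6 counts to the anchor of PA2G4, a gene for a proliferation-associated RNA-binding protein, 13.7 kb away, and by 9 and 7 counts to ESYT1, a gene for a membrane tether, 9.98 kb away. RPL22 was joined to RNF207, 6.23 kb away, by 3 and 12 counts. RPS2 was joined to TBL3, a gene for a subunit of the small subunit processome, 6.99 kb away, by 7 and 7 counts. RPL8 was joined to the zinc finger gene ZNF517 by 6 and 8 counts over 5.83 kb, and RPS24 to POLR3A, which encodes the largest subunit of RNA polymerase III, by 6 and 7 counts over 4.87 kb. The RPL41 anchor also holds the promoter of ZC3H10, and the anchor at ESYT1 overlaps ZC3H10. The RPS2 anchor also holds the promoter of RNF151. Loops of such shared anchors cannot be assigned to a single gene.

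Among loops of 20 kb or more, RPL13 had the highest, 9 and 4 counts to SPG7, a mitochondrial protease gene, 54.7 kb away (chr16:89567858-89576260). The RPL7 anchor, which also holds the RDH10 promoter, was joined to a site within RDH10, 20.7 kb away, by 3 and 5 counts. RPL23 had 2 and 5 counts to CWC25, a splicing factor gene, 29.3 kb away, and 1 and 6 counts to a site within LASP1, 28.1 kb away on the other side. The next 6 loops had a summed count of 6 each. They joined RPS25 to BCL9L, a coactivator of beta-catenin, 99 kb away by 3 and 3 counts, RPL28 to PPP6R1 135 kb away by 3 and 3, RPL22 to HES3 and GPR153 53.1 kb away by 1 and 5, RPS27 to SLC39A1 and CREB3L4 25.7 kb away by 3 and 3, RPS19 to a site in ARHGEF1 33.3 kb away by 2 and 4, and RPS14 to an anchor without a named gene 22.7 kb away by 4 and 2. The RPS25 anchor also holds the promoter of TRAPPC4 and the RPL28 anchor that of TMEM238, so their loops cannot be assigned to a single gene. Some partner anchors were wide: 25279 bp at BCL9L, 35882 bp at PPP6R1, 19339 bp at HES3 and GPR153 and 13637 bp at ARHGEF1. The median over all anchors was 2541 bp, so these midpoint distances are approximate for the named genes. The longest loop with a summed count of 5 or more spanned 209 kb, from RPL10A to ZNF76 (3 and 2 counts).

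No member loop exceeded its expected count after correction. The expected count of each anchor pair was computed from the distance and the balanced depth of both anchors, and a Poisson test for higher counts (one-sided) was run on the summed counts of all 51094598 anchor pairs, with p-values adjusted by the method of Benjamini and Hochberg. It called 31 pairs in the whole series (a background of 6.07e-05%) and 0 of the 30986 pairs of member anchors, for which the smallest adjusted p was 1. Unadjusted p was below 0.05 for 556 of the 30986 member pairs (1.79%), with a smallest value of 3.19e-05. Among pairs that had a count, the share was 25.6% at member anchors, 27.7% at other promoter anchors and 35.6% over all anchors. A count was present for 2169 of the 30986 member pairs and for 1973470 of the 51094598 pairs in all. The share over all pairs with or without a count is not given here, so the 1.79% has no background beside it. With the distance alone as the expectation, 31 of the 30986 member pairs passed, beside 7997 of the 51094598 pairs in the whole series. In simulated data for chromosome 1 the test recovered 35 of the 200 pairs whose rate was raised 20-fold. At 5-fold it recovered 0 of 200 and at 10-fold 7 of 200. The simulation covered the anchor pairs of chromosome 1 only, fewer than the 51094598 over which the data were adjusted. Its recovery may therefore overstate that of the test on the data. The raised pairs were drawn among nearby anchors whatever their expected count, and pairs with a high expected count need a smaller rise to pass.

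The ratio of observed to expected counts was above 1 by its 95% Poisson interval for 14 of the 87 loops. The following were picked out after their values were seen. RPLP2 and PNPLA2, a triglyceride lipase gene, 7.46 kb apart, had 3 and 8 counts where 2.36 were expected in sum (ratio 4.65, 2.32 to 8.32). RPL10A and ZNF76 had 5 counts in sum where 0.536 were expected (ratio 9.33, 3.03 to 21.8). RPS25 and BCL9L had a ratio of 3.88 (1.42 to 8.44), RPL13 and SPG7 of 2.31 (1.23 to 3.96) and RPL22 and RNF207 of 2.39 (1.34 to 3.94). The 2 loops of RPL41 with the highest counts had ratios of 1.64 (0.939 to 2.67) and 0.759 (0.434 to 1.23), so the highest counts did not go with the highest ratios. The 87 loops were selected by their counts, which favours ratios above 1. The same share among strong loops of other promoters is not given here, so the 14 loops do not set the members apart.

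**Figure D4:**
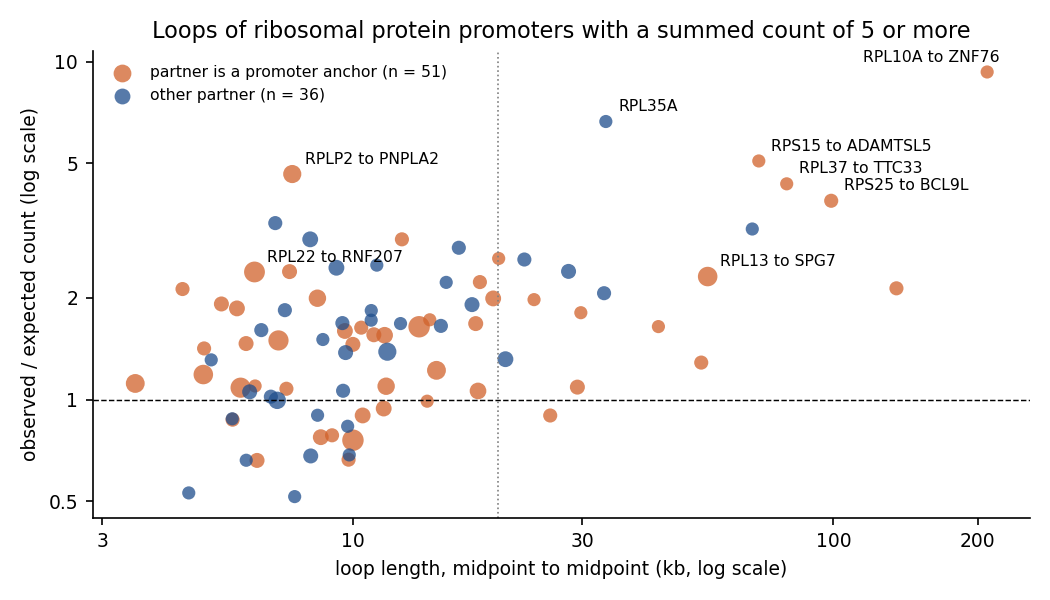
The 87 loops of ribosomal protein promoter anchors with a summed count of 5 or more, by length (horizontal axis, kb, log scale) and ratio of observed to expected count (vertical axis, log scale), for 51 partners that hold a promoter (orange) and 36 that do not (blue), with the point area rising with the summed count. The dotted line marks 20 kb and the dashed line a ratio of 1; RPL10A to ZNF76 lies highest at 9.33 and 209 kb.

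Ribosomal protein promoters sent a larger share of their counts to other promoters. Of their counts up to 2 Mb, 481 of 1505 in replicate 1 (32.0%, exact 95% interval 29.6 to 34.4) and 619 of 1817 in replicate 2 (34.1%, 31.9 to 36.3) ended at another promoter anchor. The share was 20.5% and 20.9% for other promoter anchors, a difference of 12.3 ± 1.20 percentage points (SD, n = 2). The members lie near more start sites, and their expected share from distance and depth was 28.5% of summed counts against 32.7% observed. Observed over expected counts with promoter partners were 1.15 (1.08 to 1.22) for members and 1.04 (1.03 to 1.05) for other promoters. Without anchors that touch a second promoter the difference of the shares was 7.37 percentage points.

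The lengths of their contacts differed from those of other promoters by small amounts, and the direction depended on the weighting. Counts under 20 kb made up 24.9% and 24.3% of the members' counts and 23.7% and 23.2% of the others', a difference of 1.12 ± 0.00615 percentage points (SD, n = 2). The shares of the others lie within the exact 95% intervals of the members' shares, 22.7 to 27.1% and 22.4 to 26.4%, and the difference turned to -1.45 when each loop had the same weight. The median loop of member anchors was 174 and 190 kb long, against 150 and 156 kb for other promoters. Weighted by counts the medians were 104 and 113 kb against 98.7 and 101 kb.

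Against the expectation from distance and depth, summed member counts under 20 kb came to 799 with 776 expected, a ratio of 1.03 (0.960 to 1.10). The ratio was 0.949 (0.884 to 1.02) from 20 to 100 kb, where other promoters had 1.04, then 1.06 (1.00 to 1.13) from 100 to 500 kb and 0.920 (0.848 to 0.997) beyond, where other promoters had 0.898. The balancing can lower these longer classes: in simulated data in which only contacts under 20 kb were raised 1.5-fold, the ratio beyond 20 kb came to 0.91, so no deficit is read from ratios of this size. With promoter partners only, members had a ratio of 1.27 (1.13 to 1.43) from 100 to 500 kb against 1.08 (1.07 to 1.10) for other promoters. It was 1.27 and 1.28 in replicates 1 and 2, and within each replicate the interval overlapped that of the other promoters.

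**Figure D5:**
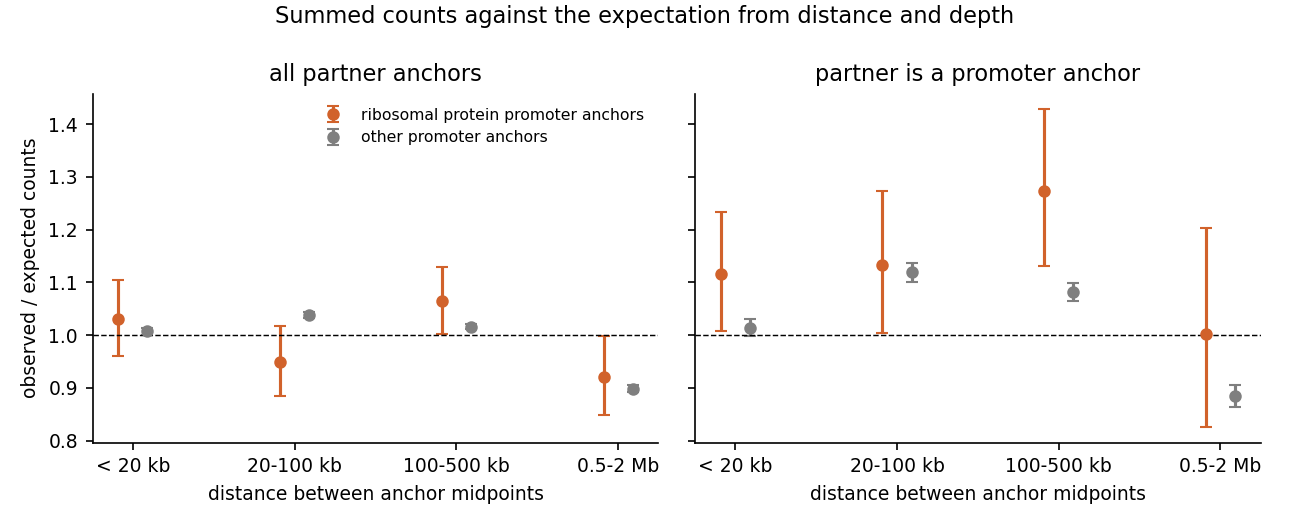
Summed counts over the expected counts (vertical axis) in 4 classes of distance between anchor midpoints (horizontal axis), for all partners (left) and promoter partners (right), with exact 95% Poisson intervals that cover counting error only. Ribosomal protein promoter anchors (orange) and other promoter anchors (grey) stand furthest apart at 100 to 500 kb with promoter partners, 1.27 against 1.08.

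Few ribosomal protein promoters lie close enough to each other to be joined. There were 12 pairs of member anchors up to 2 Mb apart, 6 of them with counts, and they held 22 counts where 18.4 were expected (ratio 1.19, 0.748 to 1.81). RPS26 and RPL41, 76.3 kb apart, had 1 and 3 counts with 1.35 expected, and the paralog RPL3L and RPS2, 10.4 kb apart, had 1 and 2 with 2.36 expected. RPL18 and RPL13A, 868 kb apart, had a single count in replicate 2. RPL23 and RPL19, 346 kb apart, had none.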

How the data were processed

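H3K27ac HiChIP counts of HCT116 (MboI digestion) were taken as the authors deposited them. Per the labels and the study's methods, HiC-Pro gave valid pairs on hg19 and hichipper the loops; versions and anchor settings are not given in the sources used here. The deposited counts are raw paired-end tags between 2 anchors of a chromosome, not normalized. Members and gene lists were chosen with earlier results of these data known. Genes were the GENCODE 44 canonical transcripts on GRCh37. Genes named with values were the 8 with the highest and the 8 with the lowest depth, 4 paralogs, the strongest loops (8 of 20 kb or more, with ties, and 6 shorter) and the 5 with the largest replicate difference; a few of these are not reported here. Expected counts came from 60 distance classes and anchor weights balanced in 20 rounds. In the test and in the ratios of single loops the pair's own count was left out (offset 0.5). This form was set after a simulation and first calls had been seen. The ratios by distance class and with promoter partners, and the expected counts of member pairs, kept the pair's own count. On simulated data with 100 anchors raised 1.5-fold under 20 kb, the ratio came to 1.27 under 20 kb and 0.91 beyond, where nothing was raised, so ratios understate a rise in one class and lower the others. A count between 2 anchors of a set was given to both anchors in shares and lengths. With medians of 17 and 21 counts per member anchor, counting error limits single values. Python 3.11.15, numpy 2.4.6, pandas 2.3.3, scipy 1.17.1 and pysam 0.24.0 were used. Alternatives covered the promoter definition, distance, members, replicates and expectation.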

Additional observations from a re-analysis of the deposited data

Results flagged for a closer look

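Contacts over 2 Mb lay outside every comparison above. Ribosomal protein promoter anchors had 1034 such counts in sum, 473 in replicate 1 and 561 in replicate 2, which is above the 3 counts that a count of 0 allows; they made up 24% and 23.7% of the members' counts and 25.3% and 25.5% of those of other promoter anchors. No pair had more than 2 counts in a replicate, and 0 joined 2 ribosomal protein promoters, which allows up to 3 counts in each replicate.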

How the results depend on the processing

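The depth ratio of 1.46 was 1.33 with promoters of ±1 kb, 1.25 with only the anchor that holds the start, 1.56 with the starts of all transcripts, 1.54 without the paralogs, 1.36 without anchors shared with another promoter, 1.40 without the gained segments of chromosomes 8, 10 and 17, 1.38 relative to the local depth and 1.34 within classes of width; leaving out a replicate gave 1.42 to 1.5. Per kilobase it was 1.53 with all transcripts and 1.33 to 1.49 by replicate. The share of anchors with a loop of summed count 5 or more was 14.7% at 10 or more, and 21.3 to 28.0% in a single replicate, against 9.19 to 12.1% of other promoters. The difference in counts under 20 kb reversed to -0.80 with only counts of at least 2 and to -1.45 with equal weight per loop. It was 1.30 at ±1 kb, 1.68 with the start anchor only, 0.918 with all transcripts, 1.32 up to 500 kb, 1.06 with no limit, 0.793 without paralogs, 0.974 with a wider member list, 0.403 without shared anchors, 1.42 without the gained segments and 0.583 between inner edges; by replicate it was 1.11 to 1.12. The difference in counts to promoters was 11 with the start anchor only, 14.2 up to 500 kb, 10.5 with no limit, 7.37 without shared anchors, 21.6 with counts of at least 2, and 11.5 to 13.2 by replicate. With the expectation from distance alone the ratio under 20 kb was 2.44 and 31 member loops, of 7997 pairs in all, passed the test. With the expectation from distance and depth the ratio was 1.01 to 1.06 by replicate, and 0 member loops passed at an adjusted p of 0.01 or in either replicate. The difference of 29.8 percentage points in anchors with a loop of summed count 5 or more was 12.8 after weighting to the depth classes and 12 at the same summed depth. The causes were not tested. No paired analysis was possible because there was 1 condition. Depths of 4 to 58 counts per anchor limit statements on single genes, and a loop of 5 counts cannot be ranked against its neighbours.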
